A study of Mus musculus with 6 samples.

Results

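The 10 genes described here encode the extracellular ligands, the receptors and the latent binding proteins of the transforming growth factor beta (TGF-β) pathway. They are the ligands Tgfb1, Tgfb2 and Tgfb3, the receptors Tgfbr1, Tgfbr2 and Tgfbr3, and the latent TGF-β binding proteins Ltbp1, Ltbp2, Ltbp3 and Ltbp4. The rule takes them by name from the mouse gene symbols of the probes on the array and uses no measured value, and all 10 are among the 20900 genes that could be tested. They were measured by 15 probes, and all 15 probes were well above background on all 6 arrays. RNA of the gastrocnemius muscle, the large fast calf muscle, was taken from 3 young male mice aged 13 weeks and 3 aged male mice aged 26 months, all C57BL/6J and untreated as far as the labels and methods say, and each mouse had its own single-colour Agilent array. The comparison asks which of these genes are expressed at another level in old than in young muscle.

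TGF-β is secreted bound to its own propeptide, and most of it is covalently attached to a latent TGF-β binding protein that anchors it in the extracellular matrix, where integrins, proteases or thrombospondin release it. The free ligand is captured by the type II receptor (Tgfbr2), which phosphorylates the type I receptor (Tgfbr1), which in turn phosphorylates the transcription factors Smad2 and Smad3. The co-receptor betaglycan (Tgfbr3) presents ligand, and in muscle the pathway is known for driving matrix production by fibroblasts and for holding back the differentiation of muscle precursor cells.

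All levels below are log2 signals relative to the 75th percentile of the array, so that 0 stands for the signal of the 75th percentile, and all differences are aged minus young. Signals of different probes are not compared as levels, since probes differ in their binding. The signal at the 75th percentile was between 209 and 300 on the young arrays and between 270 and 310 on the aged arrays, and 48.7% to 53.8% of probes were well above background. The 6 arrays were on 1 slide, with the young mice and aged mouse 1 in row 1 and aged mice 2 and 3 in row 2. Of the 10 markers of skeletal muscle, 9 were above background and tested, and only Tnni2 was not. Whole muscle also holds other cells, and fewer cells of a type cannot be told apart from less RNA per cell. As nothing in the labels ties the young mice to the aged mice, replicate numbers only name the mice.

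None of the 10 genes passed an adjusted p of 0.05 (limma, Benjamini-Hochberg over all genes tested), where 53 of all genes, or 0.254%, did (0.196% higher and 0.0574% lower, 41 and 12 genes, or 26 and 16 with each array scaled to its median). At an unadjusted p under 0.05 there were 2 of the 10, Ltbp1 and Ltbp4, both lower in aged mice, against 14.4% of all genes (6.07% higher and 8.36% lower). The same pair were the members in which the groups did not overlap, against 21.8% of all genes (7.92% higher and 13.9% lower). The mean was higher in aged mice for 4 genes (Tgfb2, Tgfb3, Tgfbr1 and Ltbp2) and lower for 6 (Tgfb1, Tgfbr2, Tgfbr3, Ltbp1, Ltbp3 and Ltbp4), and 43.1% of all genes had a higher mean. The signs of Ltbp2 and Ltbp3, whose differences were close to 0, turned under other scalings, so that 3 to 5 of the 10 were higher. The median difference of the 10 genes was -0.06, with a range from -0.89 to 0.49, and that of all genes was -0.06. The median size of the difference, whatever its sign, was 0.22 for the 10 genes and 0.25 for all genes. By these counts and medians the 10 genes lay close to the genes at large. With 3 mice against 3, a two-sided exact permutation test of a single gene cannot go below p = 0.1, so only the limma fit is given for single genes.

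**Figure D1:**
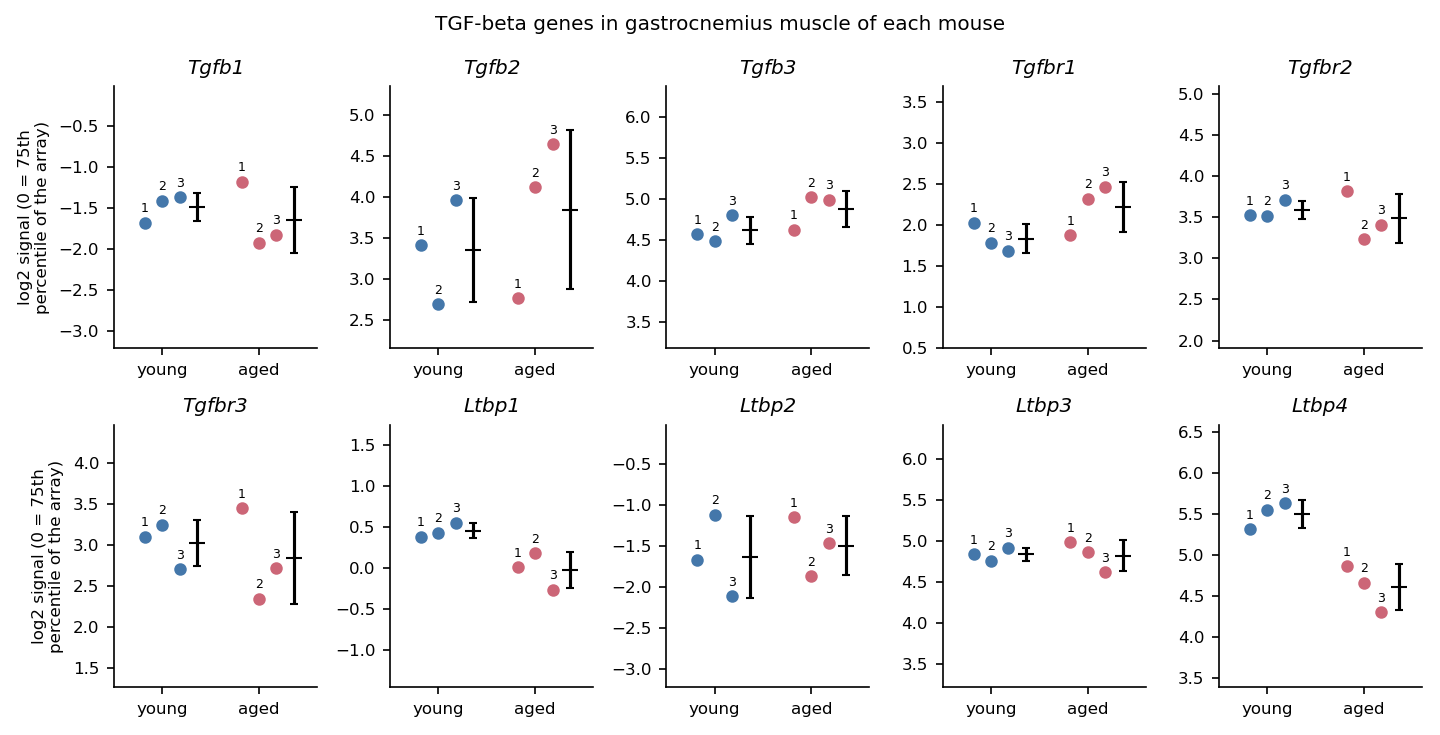
Log2 signal of each of the 10 genes in each mouse (vertical axis, 0 being the 75th percentile of the array), with young mice on the left and aged mice on the right of each panel, 1 point per mouse, and the mean with its SD as a bar beside the points. The points of the 2 groups are apart only for Ltbp1 and Ltbp4, both lower in aged mice.

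The 3 members with the largest difference in either direction were Ltbp4, Tgfb2 and Ltbp1, and the 250 bases upstream of their transcription starts (RefSeq, mouse build GRCm38.p6) are shown for that reason. Where a gene has several starts, the one furthest upstream is given. Each is written 5′ to 3′ on the strand of the gene, in lower case, with the SMAD box, the short element CAGAC or its complement GTCTG to which the Smad3 and Smad4 proteins are known to bind, in capitals.
Ltbp4, chr7:27337613-27337862, minus strand: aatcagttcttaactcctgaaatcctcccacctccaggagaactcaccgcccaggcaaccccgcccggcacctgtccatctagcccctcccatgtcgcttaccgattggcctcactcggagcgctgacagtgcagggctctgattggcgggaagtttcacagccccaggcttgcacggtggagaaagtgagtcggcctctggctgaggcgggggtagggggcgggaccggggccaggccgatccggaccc
Ltbp1, chr17:75005279-75005528, plus strand: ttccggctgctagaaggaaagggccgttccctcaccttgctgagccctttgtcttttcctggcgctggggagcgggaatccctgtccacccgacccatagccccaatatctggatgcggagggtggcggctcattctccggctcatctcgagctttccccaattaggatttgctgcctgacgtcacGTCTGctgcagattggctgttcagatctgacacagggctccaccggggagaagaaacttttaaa
Tgfb2, chr1:186705990-186706239, minus strand: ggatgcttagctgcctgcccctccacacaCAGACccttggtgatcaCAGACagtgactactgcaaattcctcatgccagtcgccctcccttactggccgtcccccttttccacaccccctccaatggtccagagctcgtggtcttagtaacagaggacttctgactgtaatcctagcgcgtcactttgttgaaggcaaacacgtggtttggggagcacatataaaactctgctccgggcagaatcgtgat
The Ltbp4 stretch held no SMAD box and 3 GC boxes (GGGCGG or CCGCCC), and its GC content was 64.4%. The Ltbp1 stretch held 1 SMAD box, lying just downstream of a cAMP response element (TGACGTCA) that it does not overlap, and the Tgfb2 stretch held 2 SMAD boxes, 1 E-box (CACGTG) and 1 TATA box (TATAAA or TTTATA). Promoter entries were given for 8 of the 10 genes, 12 entries in all, and 7 of them (58.3%) held a SMAD box, as did 42.2% of all 32851 entries of the same length. Some genes gave several entries, and the Ltbp4 windows starting at 27333649 and 27333664 overlap. The 12 entries are therefore not separate stretches. The GC box occurred in 32.7% of all entries, the TATA box in 12.4%, the E-box in 6.02% and the cAMP response element in 1.55%. Such letters describe the window and are not shown to be bound sites.

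Among the ligands, Tgfb1 encodes the form that is best known from immune cells, platelets and fibrosis. Young mice 1 to 3 gave log2 signals of -1.68, -1.42 and -1.37, and aged mice 1 to 3 gave -1.18, -1.92 and -1.83. Aged mouse 1 lay above every young mouse, and aged mice 2 and 3 lay below every young mouse. The young mean was -1.49 ± 0.17 and the aged mean -1.64 ± 0.40 (SD, n = 3 each), and the difference of -0.15 had a 95% confidence interval from -0.72 to 0.41 (adjusted p = 0.792, limma).

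The probe of Tgfb1 was printed 10 times on each array, so that the error of the measurement on an array can be set beside the spread between mice. The SD between spots on an array was between 0.04 and 0.17, and the standard error of the mean over 9 or 10 spots was at most 0.06. The SD between aged mice was 0.40, so the aged mice differed among themselves by more than the spots did. All 10 spots of aged mouse 1 lay between -1.34 and -0.77, above all spots of aged mouse 2 (-2.13 to -1.68) and aged mouse 3 (-2.04 to -1.74). Repeat spots share the RNA of 1 mouse and are not replicates of an age.

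Tgfb2 encodes a ligand that depends strongly on betaglycan for its binding. Young mice 1 to 3 gave 3.41, 2.69 and 3.96, and aged mice 1 to 3 gave 2.76, 4.11 and 4.64. Aged mice 2 and 3 lay above every young mouse and aged mouse 1 lay within the range of the young mice. The means were 3.35 ± 0.64 and 3.84 ± 0.97 (SD, n = 3 each), and the difference of 0.49 had an interval from -0.77 to 1.75 (adjusted p = 0.694, limma), the widest of the 10 genes.

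A second probe of Tgfb2 gave log2 signals of 1.49, 1.04 and 2.0 in young mice and 0.88, 2.03 and 2.49 in aged mice. On both probes young mouse 2 was the lowest of the young mice and aged mouse 3 the highest of all mice. The difference on the second probe was 0.29 (interval -0.77 to 1.36), and the groups overlapped there too.

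Tgfb3 encodes the third ligand, known from palate fusion and from wound healing. Its log2 signal was 4.57, 4.48 and 4.8 in young mice and 4.62, 5.02 and 4.99 in aged mice. Aged mice 2 and 3 lay above every young mouse and aged mouse 1 within their range, the same arrangement as for Tgfb2. The difference was 0.26 with an interval from -0.18 to 0.70 (adjusted p = 0.550, limma). The probe of Tgfb3 was also printed 10 times, and over the 8 or 9 spots per array that were not set aside, the SD was between 0.04 and 0.08, while the SD between mice was 0.17 in young and 0.22 in aged mice.

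**Figure D2:**
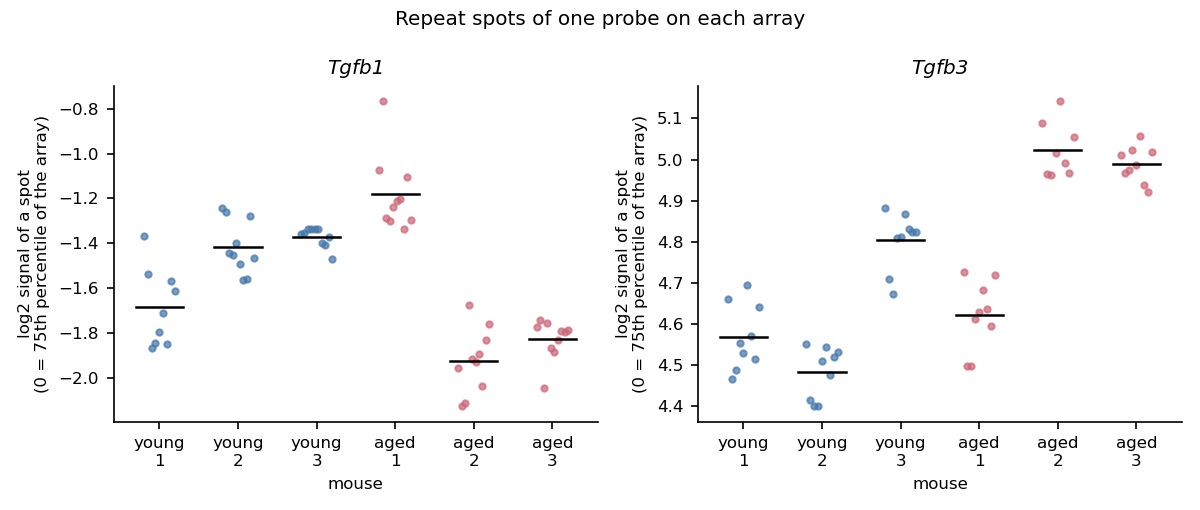
Log2 signal (vertical axis, 0 being the 75th percentile of the array) of each spot of the Tgfb1 probe and of the Tgfb3 probe on the array of each mouse (horizontal axis), 1 point per spot. Spots of 1 array lie close together compared with the distances between the arrays of different mice. Aged mouse 1 stands above aged mice 2 and 3 for Tgfb1 and below them for Tgfb3.

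The genes with the pattern most like each ligand were found by Pearson correlation of log2 signals over the 6 arrays, among 13843 other genes with a symbol. For Tgfb1 they were Kcnn4 (r = 0.995), Mvd (0.992) and Gpkow (0.988). For Tgfb2 they were Daam1 (0.996), Bet1 (0.994) and Dus4l (0.994), and for Tgfb3 they were Nek3 (0.998), Ap1b1 (0.995) and Cmas (0.995). With so many genes and 6 arrays that share a slide and a scaling, correlations of this size are a description of these arrays only.

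Of the receptors, the type I receptor Tgfbr1, the kinase that phosphorylates Smad2 and Smad3, had log2 signals of 2.03, 1.79 and 1.69 in young mice and 1.88, 2.32 and 2.47 in aged mice. Aged mice 2 and 3 were above every young mouse and aged mouse 1 was within their range. The difference was 0.39 (SE 0.21, interval -0.11 to 0.89, adjusted p = 0.439, limma), a 1.31-fold higher mean in aged mice. Its other probe, much dimmer, gave -2.60, -2.11 and -3.19 in young mice and -2.43, -2.28 and -1.54 in aged mice, a difference of 0.55 (SE 0.35) with overlapping groups.

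The type II receptor Tgfbr2, which binds the ligand first, gave log2 signals of 3.53, 3.52 and 3.72 in young mice and 3.82, 3.23 and 3.41 in aged mice. Aged mouse 1 was the highest of all mice and aged mice 2 and 3 were the lowest, as for Tgfb1. The difference was -0.10 (interval -0.57 to 0.37, adjusted p = 0.837, limma) on this probe and 0.06 on the other, so its sign was not the same on both probes.

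The co-receptor Tgfbr3 gave 3.10, 3.24 and 2.70 in young mice and 3.45, 2.34 and 2.71 in aged mice. Aged mouse 1 was again the highest of all mice, aged mouse 2 was the lowest, and aged mouse 3 was within the range of the young mice. The difference was -0.18 (interval -0.92 to 0.56, adjusted p = 0.812, limma).

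Of the latent binding proteins, Ltbp4, which is also needed for elastic fibre assembly and in which a variant modifies muscular dystrophy in mice, had the largest difference of the 10 genes. Young mice 1 to 3 gave 5.31, 5.55 and 5.62, and aged mice 1 to 3 gave 4.86, 4.66 and 4.30. All aged mice lay below the lowest young mouse, and aged mouse 1 was the closest to the young mice. The means were 5.49 ± 0.17 and 4.61 ± 0.28 (SD, n = 3 each), and the difference of -0.89 (SE 0.20, interval -1.37 to -0.41) is a 0.540-fold level in aged mice. Its unadjusted p was 0.00326 and its adjusted p 0.153 (limma), so it did not pass the threshold.

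The second probe of Ltbp4 gave 3.20, 3.41 and 3.51 in young mice and 2.75, 2.63 and 2.25 in aged mice. The order of the aged mice, and that of the young mice, was the same as on the first probe, and the groups did not overlap here either. The difference was -0.83 (SE 0.20, interval -1.30 to -0.36, unadjusted p = 0.00433, adjusted over all probes 0.177, limma).

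Ltbp1, the founding member of the family and the carrier of latent Tgfb1 in many tissues, gave 0.39, 0.44 and 0.56 in young mice and 0.02, 0.18 and -0.26 in aged mice. All aged mice lay below the lowest young mouse, and the gap between the highest aged and the lowest young mouse was narrow. The difference was -0.48 (SE 0.18, interval -0.90 to -0.07), a 0.716-fold level, with an unadjusted p of 0.0293 and an adjusted p of 0.299 (limma). The scaling bears on this gene, since its unscaled processed signal was 392, 350 and 308 in young mice and 314, 325 and 226 in aged mice, which overlap. For Ltbp4 the unscaled signal was 11869, 12098 and 10326 in young mice and 9004, 7229 and 5326 in aged mice, with no overlap.

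Ltbp2, the member of the family that does not bind latent TGF-β and that associates with fibrillin, gave -1.67, -1.12 and -2.11 in young mice and -1.15, -1.87 and -1.46 in aged mice. All aged mice were within the range of the young mice, and the difference was 0.14 (interval -0.59 to 0.86, adjusted p = 0.855, limma). Ltbp3, a carrier of latent TGF-β in bone and arteries, gave 4.84, 4.76 and 4.92 in young mice and 4.98, 4.86 and 4.62 in aged mice. Its difference was -0.02 with an interval from -0.41 to 0.37 (adjusted p = 0.967, limma), the narrowest interval of the 10 genes, and 0.03 on its other probe.

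**Figure D3:**
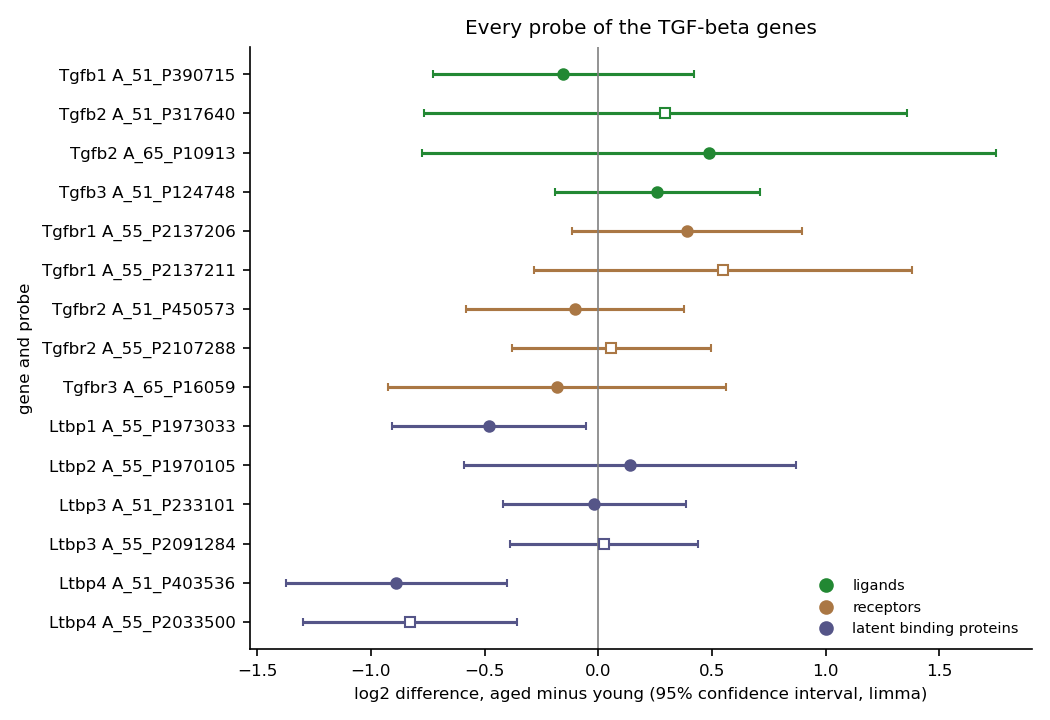
Difference in log2 signal, aged minus young (horizontal axis), for each of the 15 probes of the 10 genes (vertical axis), with 95% confidence intervals from limma. The intervals of both Ltbp4 probes and of the Ltbp1 probe lie below 0 and all others include 0.

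Marker lists of the cells that can make these proteins are given beside Ltbp4 and Ltbp1, and in the first 4 of them no marker passed the adjusted threshold. The summed level of 10 fibroblast markers, in multiples of the 75th percentile, was 501 to 555 in young mice and 264 to 395 in aged mice. Of these markers 8 of 10 were lower, with a median difference of -0.27. Only 3 of 10 were lower at an unadjusted p under 0.05 (Col1a1, Col1a2 and Dcn), against 8.36% of all genes. The sum adds signals of different probes, and 44.4% to 78.9% of it was Dcn. The fibroblast markers Pdgfra, Lum and Pi16 differed by -0.21, -0.22 and -0.12, and Ly6a and Dpt by 0.48 and 0.81. The sum of 10 endothelial markers was 129 to 157 and 82.1 to 107 (7 of 10 lower, median -0.48), and that of 10 smooth muscle and pericyte markers was 80.5 to 95.2 and 71.3 to 79.3 (9 of 10 lower, median -0.44). For 9 macrophage markers it was 23.8 to 25.7 in young and 28.2 to 34.5 in aged mice, with 8 of 9 higher and a median of 0.64. One of the 8, Fcgr1, was well above background on 0 young and 3 aged arrays. It was therefore tested only through the group where it was higher, and its direction adds nothing to that count. In these 4 sums the groups did not overlap, and their part in the values of Ltbp4 and Ltbp1 was not tested.

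The other marker lists were as follows. Of all genes, 8.36% were lower at an unadjusted p under 0.05, and 13.9% were lower with no overlap. The skeletal muscle sum was 5772 to 6986 in young and 4705 to 6252 in aged mice (8 of 9 lower). The erythrocyte sum was 638 to 927 in young and 290 to 462 in aged mice, with no overlap of the sums. All 6 erythrocyte markers tested were lower, 3 of them without overlap, and 62.56% to 72.05% of the sum was Hba-a2. Of 8 tendon markers, 7 were lower, all 7 without overlap and at an unadjusted p under 0.05, with a median of -1.50, and Kera, a cornea and tendon proteoglycan, fell by 3.18 on the log2 scale (adjusted p = 0.0262, limma). Scx was higher, so that the tendon sum overlapped (72.8 to 82.0 and 48.1 to 84.8), and the list shares Fmod with the genes that act on the latent complex. Of 8 Schwann cell markers, 6 were lower, all 6 without overlap and at an unadjusted p under 0.05, with a median of -0.83, and Prx, a myelin protein, fell by 1.29 (adjusted p = 0.0428). Their part in the values of the members was not tested. Platelets are a rich source of Tgfb1, and the sum of the 4 platelet markers tested was 7.61 to 11.1 in young and 9.76 to 15.4 in aged mice, which overlap. Of this sum 93.1% to 96.2% was Pf4, so it is nearly the value of a single gene. Without Pf4 it was 0.426 to 0.599 in young and 0.373 to 0.811 in aged mice. Of the markers tested, 5 of 6 adipocyte and 4 of 5 lymphocyte markers were lower, with 0 of them lower at an unadjusted p under 0.05 and 0 past the adjusted threshold, and 3 of 4 satellite cell markers were higher. The remaining marker on the lymphocyte list, Ptprc, was higher by 1.01 with overlapping groups (unadjusted p = 0.0205, adjusted p = 0.269, limma). The defining markers Cd163 of macrophages and Cd3d, Cd3g, Cd8a, Cd79a and Ms4a1 of lymphocytes were too dim to be tested.

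Aged mouse 1 differed from aged mice 2 and 3 in several of the 10 genes, and its negative control spots had a net signal of 36, against 26.5 to 29.2 on the other arrays. Without this mouse the difference of Tgfb2 became 1.03 (unadjusted p = 0.0418, adjusted p = 0.259, limma) and that of Tgfbr1 became 0.56 (unadjusted p = 0.0235, adjusted p = 0.206), while that of Tgfb1 became -0.39 (adjusted p = 0.330), that of Tgfbr2 -0.27 (adjusted p = 0.465) and that of Tgfbr3 -0.49 (adjusted p = 0.344). The difference of Tgfb3 became 0.39 (adjusted p = 0.324), that of Ltbp1 -0.50 (adjusted p = 0.271) and that of Ltbp4 -1.02 (adjusted p = 0.0900), so that none passed the threshold, which 0.952% of all genes then did. At an unadjusted p under 0.05 there were then 4 of 10 genes, Ltbp1, Ltbp4, Tgfb2 and Tgfbr1, against 18.1% of all genes. That count was 2 (Ltbp1 and Ltbp4) without aged mouse 2, and 1 (Ltbp4) without aged mouse 3 or without any 1 of the young mice, so that Ltbp1 lost its unadjusted call in 4 of the 6 cases. For those other fits the share of all genes was not computed, so their counts cannot be set against the genes at large. Without aged mouse 1 the aged group holds 2 mice, and that mouse was left out after its values were seen.

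The row of the slide moved with these values. Aged mouse 1 is the only aged mouse in the row of the young mice, and the difference within that row is therefore the value of this mouse against the 3 young mice. Within the row it was 0.31 for Tgfb1, -0.59 for Tgfb2, 0.00 for Tgfb3, 0.04 for Tgfbr1, 0.23 for Tgfbr2 and 0.43 for Tgfbr3, so that 4 of these 6 had the opposite sign from the pooled value. It was -0.64 for Ltbp4 (adjusted p = 0.415, limma with the row as a block), -0.44 for Ltbp1 (adjusted p = 0.531), 0.48 for Ltbp2 and 0.14 for Ltbp3. For aged mice 2 and 3 the row and the age cannot be told apart.

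**Figure D4:**
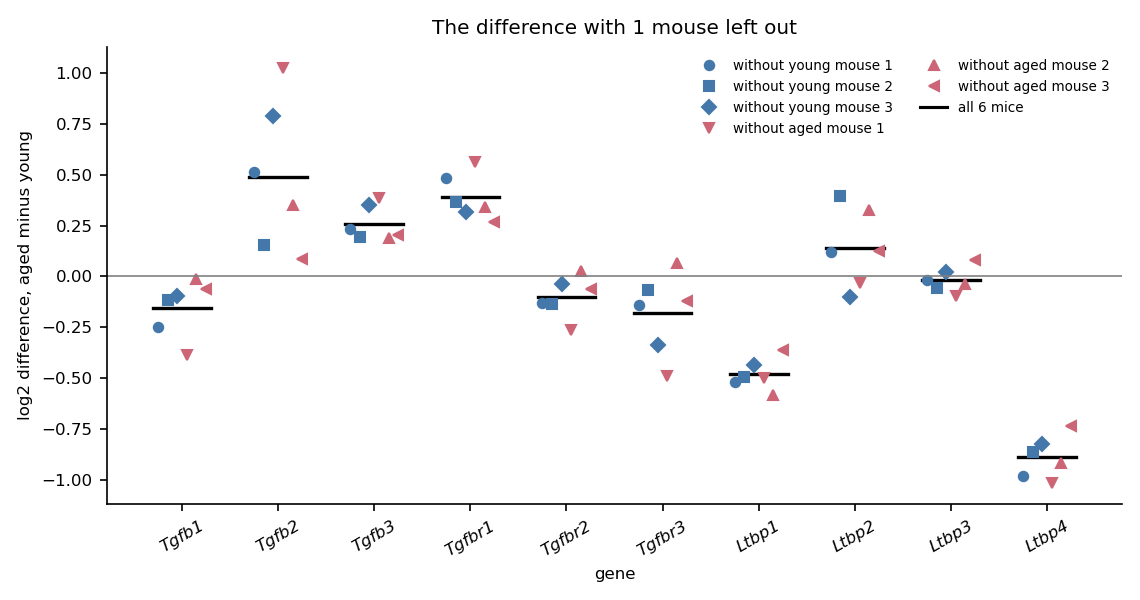
Difference in log2 signal, aged minus young (vertical axis), of each of the 10 genes (horizontal axis), from all 6 mice and with each mouse left out in turn. All values lie below 0 for Ltbp4 (-1.02 to -0.74), Ltbp1 (-0.58 to -0.36) and Tgfb1 (-0.39 to -0.01). They lie above 0 for Tgfb3, Tgfbr1 and Tgfb2, and those of Tgfbr2, Tgfbr3, Ltbp2 and Ltbp3 fall on both sides of 0.

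With each mouse left out in turn, the difference of Ltbp4 was between -1.02 and -0.74 and its adjusted p between 0.0900 and 0.403 (limma). That of Ltbp1 was between -0.58 and -0.36. That of Tgfb2 ranged from 0.09, without aged mouse 3, to 1.03, without aged mouse 1, so its size rests on single mice. That of Tgfb1 ranged from -0.39 to -0.01.

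The other genes of the pathway were read from 7 lists by role, 148 genes in all besides the 10 members, of which 135 could be tested. A single one, Gdf5, passed the adjusted threshold. The mean was lower in aged mice for 88 and higher for 47, with a median difference of -0.21 against -0.06 for all genes, and between 87 and 99 were lower under the other scalings. Within the row of the slide that holds the young mice and aged mouse 1 the median was -0.10, against -0.07 for all genes. At an unadjusted p under 0.05 there were 27 lower and 8 higher genes, 25.9% of those tested against 14.4% of all genes, and in 30 (22.2%) all aged mice lay below the lowest young mouse, against 13.9% of all genes. Some genes stand on 2 lists, and the lists share the matrix and fibroblast genes whose marker sums are given above. The lists were chosen with earlier results of these data known, so these shares only describe the lists.

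Of the genes that act on the latent complex, 23 of 26 were tested, and 9 were higher and 14 lower, with 0 past the adjusted threshold. At an unadjusted p under 0.05, 0 were higher and 5 lower (of all genes, 6.07% and 8.36%). Furin, the protease that cleaves the propeptide, gave 3.14, 3.24 and 3.15 in young and 3.00, 2.97 and 2.48 in aged mice, a difference of -0.36 with no overlap (adjusted p = 0.436, limma). The integrin subunit Itgb5 differed by -0.55 (adjusted p = 0.283), Itgav, its partner and that of Itgb6, by 0.25, and Itgb6 by -0.15. The other probe of Itgav gave -0.02, the opposite sign, and that of Itgb6 gave -0.18. The thrombospondins Thbs1 and Thbs2, which can release the ligand, differed by -0.39 and -0.06. The smallest p in each direction were those of Fmod, a small matrix proteoglycan that binds TGF-β (-1.30, adjusted p = 0.174), and Nrros, which anchors latent Tgfb1 on macrophages and microglia (0.42, adjusted p = 0.482). Itgb8, Mmp9 and Plg were too dim to be tested.

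Of the fibrillin microfibril and elastic fibre genes, with which the latent binding proteins are deposited, 18 of 19 were tested, with 6 higher, 12 lower and 0 past the adjusted threshold. At an unadjusted p under 0.05, 0 were higher and 4 lower (of all genes, 6.07% and 8.36%). Fbn1, the fibrillin of adult tissue, differed by -0.11 (adjusted p = 0.850, limma), and Fbn2 was too dim. Mfap4, which binds fibrillin and elastin, had the smallest p among the lower genes (-1.11, adjusted p = 0.190), and Lox, which cross-links elastin and collagen, among the higher ones (0.64, adjusted p = 0.524).

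Of the co-receptors and regulators of the receptors, 20 of 21 were tested, with 8 higher, 12 lower and 0 past the adjusted threshold. At an unadjusted p under 0.05 there was 1 each way (of all genes, 6.07% higher and 8.36% lower). The higher gene was the deubiquitinase Usp11, which stabilizes Tgfbr1 (0.81, adjusted p = 0.144, limma). The lower one was Vasn, a soluble trap of the ligand (-0.48, adjusted p = 0.338). The endothelial co-receptor Eng differed by -0.08, the endothelial type I receptor Acvrl1 by -0.12, the co-receptor Cd109 by -0.70 (adjusted p = 0.593) and the feedback inhibitor Pmepa1 by -0.52 (adjusted p = 0.504). The pseudoreceptor Bambi was too dim to be tested.

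Of the Smads and their nuclear partners, 18 of 20 were tested, with 8 higher, 10 lower and 0 past the adjusted threshold. At an unadjusted p under 0.05, 0 were higher and 4 lower (of all genes, 6.07% and 8.36%). The inhibitory Smads had the smallest p. Smad6, which inhibits chiefly BMP signalling, gave -0.87, -0.43 and -0.69 in young and -1.28, -1.54 and -1.75 in aged mice, a difference of -0.86 (adjusted p = 0.160, limma). Smad7, a feedback inhibitor that the pathway itself induces, gave -0.16, -0.33 and -0.62 in young and -0.95, -1.04 and -1.44 in aged mice, a difference of -0.77 (adjusted p = 0.202). In both genes all aged mice lay below the lowest young mouse.

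The co-repressor Skil, also induced by the pathway, gave 1.95, 1.83 and 1.46 in young and 0.94, 1.30 and 1.16 in aged mice, a difference of -0.61 (adjusted p = 0.254, limma) with no overlap, but its other probe gave -0.35 with overlapping groups. Its relative Ski differed by -0.49 (adjusted p = 0.367) with no overlap, and Tgif1, which had the smallest p among the genes with a higher mean, by 0.64 (adjusted p = 0.459). The signal carriers Smad2, Smad3 and Smad4 differed by -0.07, 0.32 and -0.34, and for Smad3 the aged mice spread from 4.28 in aged mouse 1 to 6.51 in aged mouse 3, around the young mice at 4.98 to 5.59.

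Of the genes known to respond to TGF-β, 29 of 31 were tested, Ltbp2 among them, with 10 higher, 19 lower and 0 past the adjusted threshold. At an unadjusted p under 0.05, 4 were higher and 8 lower (of all genes, 6.07% and 8.36%). Ccn2, connective tissue growth factor, gave 4.21, 4.33 and 3.56 in young and 3.49, 1.8 and 1.25 in aged mice, a difference of -1.86 with no overlap (adjusted p = 0.233, limma). Without aged mouse 1 its difference became -2.51 (adjusted p = 0.0342), past the threshold, which it did not pass under the other 17 alternatives. Without aged mouse 3 it was -1.39, and within the row of aged mouse 1 it was -0.55 (adjusted p = 0.592).

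The collagen genes Col1a1, Col1a2 and Col3a1 differed by -1.56 (adjusted p = 0.291, limma), -1.54 (adjusted p = 0.163) and -0.72 (adjusted p = 0.639), and the groups did not overlap for Col1a1 and Col1a2. Aged mouse 1 was the lowest for both, and without it the differences of Col1a1 and Col1a2 became -0.90 and -1.14, while within its row they were -2.89 and -2.34. It was also the lowest for Col3a1, whose difference became 0.01 without it and was -2.17 within its row. All 3 are also fibroblast markers. The matrix genes Fn1 and Postn differed by -0.35 and -0.57, both with no overlap, and Tgfbi and Acta2 by -0.21 and 0.22, both with overlap. The smallest p among the higher genes was that of Ankrd1, a muscle stress protein that also responds to stretch and denervation (3.42, adjusted p = 0.139). Target genes with a lower and with a higher mean thus stood side by side in the same mice.

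In the myostatin and activin arm, which uses the same Smad2 and Smad3, 16 of 17 genes were tested, with 4 higher, 12 lower and 0 past the adjusted threshold. At an unadjusted p under 0.05, 2 were higher and 3 lower (of all genes, 6.07% and 8.36%). Mstn, the muscle-made inhibitor of muscle growth, differed by -1.20 (a 0.436-fold level, adjusted p = 0.138, limma), and Fst, the secreted antagonist of myostatin and activin, by 1.15 (a 2.23-fold level, adjusted p = 0.0974). For both the aged and young mice did not overlap. The type II receptor Acvr2b differed by -0.75 (adjusted p = 0.346) and the activin subunit Inhbb by -0.10.

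In the BMP arm, which signals through other Smads, 18 of 21 genes were tested, with 5 higher and 13 lower. At an unadjusted p under 0.05, 1 was higher and 4 were lower (of all genes, 6.07% and 8.36%). Gdf5, a BMP ligand known for its induction in denervated muscle, rose with age. The young mice gave -3.46, -3.16 and -3.20 and the aged mice 1.18, 1.74 and 1.62, a difference of 4.78 (SE 0.20, 27.5-fold, adjusted p = 0.00189, limma), and its other probe gave 3.68. With normexp background correction the difference was 3.17, and with the probes averaged it was 4.23, both past the threshold, and the young signal was dim. The difference of Gdf5 was larger than that of any of the 10 TGF-β members.

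**Figure D5:**
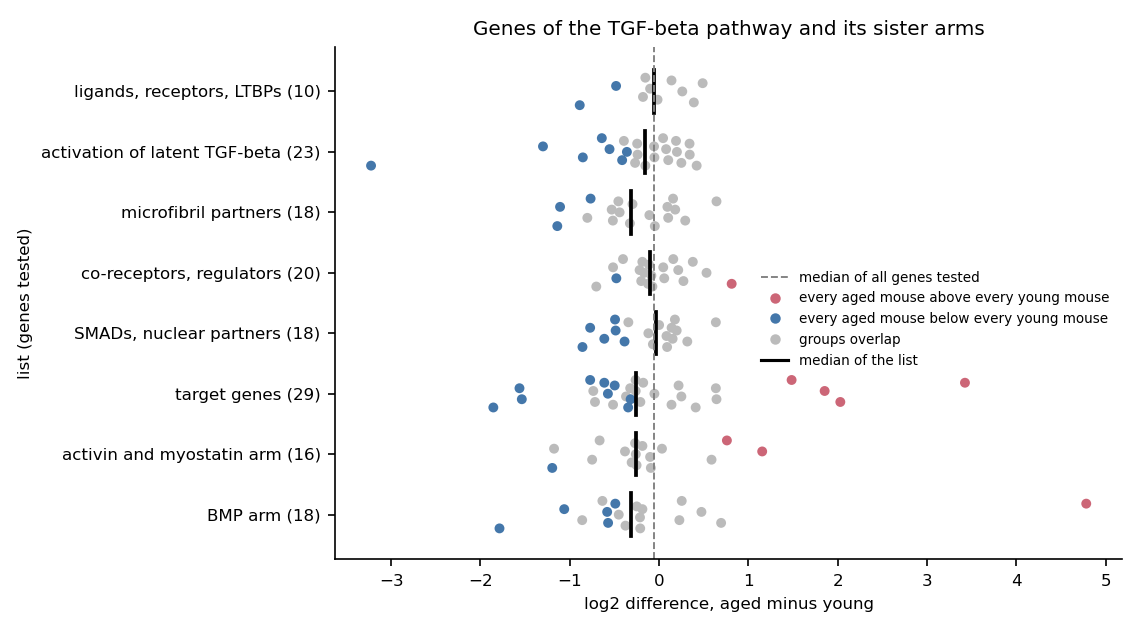
Difference in log2 signal, aged minus young (horizontal axis), of each gene tested in the 7 lists and in the 10 members (rows), 1 point per gene, with a line at the median of each list. The medians lie between -0.31 and -0.03, and Gdf5 at 4.78 stands to the right of all other genes.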

How the data were processed

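Total RNA of whole gastrocnemius muscle was labelled with Cy3 and hybridized to 6 arrays. The authors deposited 1 Feature Extraction file per array (version 11.0.1.1 in the file headers, 9.5 in the submitters' processing notes), in which the processed signal is an intensity after background subtraction and detrending within an array, not scaled between arrays. The series matrix held the same intensity values (largest log2 difference 0).

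Of 62976 spots, 59305 were not controls. Flagged spots were left out, log2 signals of the spots of a probe were averaged, and each array's 75th percentile over all probes was subtracted. Accessions were matched to RefSeq transcripts of GRCm38.p6, which named 28331 of 55681 probes, and no probe coordinates are given, as the array's design used an older one. Probes were kept if well above background on at least 3 of 6 arrays, and a gene was its brightest kept probe by mean. The age groups were compared by limma 3.58.1 (R 4.3.3), two-sided, with Benjamini-Hochberg adjustment over 20900 genes and a threshold of 0.05, and the fit was tested on simulated arrays, where changes as small as those of the members were not called. The number of arrays limits the precision.

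The members, the pathway and marker lists and the genes named were chosen with earlier results of these data known. Named are all members, a list of pathway genes, in each list the genes past the threshold or else the smallest p in each direction, and the 3 genes most like each ligand, and 1 gene of the pathway list is not reported here. Alternatives were normexp (offset 50, on the median spot signal, the mean being not used here), quantile or median scaling, the percentile over detected probes, 2 other filters, mean of probes, probes in place of genes, flagged spots kept, a mean-variance trend, the series matrix, slide row and replicate number as blocks, and each mouse left out. All arrays were on 1 slide in 1 scan.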

Additional observations from a re-analysis of the deposited data

How the results depend on the processing

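None of the 10 members passed the threshold under any of the 19 alternatives, which says nothing of stability at differences of this size. Tgfb3, Tgfbr1, Ltbp1 and Ltbp4 kept their sign in all of those run on genes. The median of the members was -0.06, -0.21 with median scaling, 0.09 with the slide row as a block, where 7 of 10 were higher, and -0.18 to 0.05 with a mouse left out. Of all genes, 53 passed, against 8 with no filter on dim probes (36710 genes tested), 35 when a probe had to be above background on every array (18551 tested) and 1 to 199 with a mouse left out, where 199 passed without aged mouse 1, 9 without aged mouse 2, 1 without aged mouse 3, and 9, 8 and 8 without young mouse 1, 2 or 3. With the replicate number as a block 5 passed, no member among them, and the pairs did not deviate together (r = -0.06, -0.27 and 0.03 for mice 1 to 3). Of the pathway genes 1 passed, or 1 to 3 with a mouse left out (Gdf5, Ccn2 and Aspn without aged mouse 1). Aspn was well above background on only 1 aged array. Its log2 signals were -0.61, -3.75 and -5.71 in aged mice 1 to 3, so that call rests on dim signals. Median scaling moved the median of all genes from -0.06 to -0.21. The cause of these changes was not tested.

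Signs turned for Ltbp3 (0.0542 with normexp, 0.0585 with quantile normalization, 0.0165 with the percentile of detected probes, 0.004 with a gene's probes averaged), Inhbb (0.0204 with normexp) and Ltbp2 (-0.0088 with median scaling). With the slide row as a block they turned for Tgfb1 (0.31), Tgfb2 (-0.59), Tgfbr2 (0.23), Tgfbr3 (0.43), Ltbp3 (0.14), Thbs1 (0.44), Thbs2 (1.2), Itgb6 (0.14), Eng (0.0272), Cd109 (0.10), Smad3 (-1.06), Tgfbi (0.14), Acta2 (-0.023) and Inhbb (0.73). With a mouse left out, differences ranged from -0.27 to 0.0264 for Tgfbr2, -0.49 to 0.0661 for Tgfbr3, -0.0999 to 0.40 for Ltbp2, -0.0982 to 0.0827 for Ltbp3, -0.68 to 0.42 for Thbs2, -0.51 to 0.53 for Inhbb, -0.32 to 0.056 for Itgb6, -0.31 to 0.0193 for Fbn1, -0.24 to 0.0897 for Eng, -0.24 to 0.0343 for Acvrl1, -1.27 to 0.0105 for Col3a1 and -0.12 to 1.0 for Smad3.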
